A study of Mus musculus with 12 samples.

Results

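The comparison set 2 kinds of NUP98-HOXD13 bone marrow culture against each other, one carrying M33-MEIS1 and one carrying MEIS1-deltaHD. Its members were chosen by the titles of the arrays, and they make up 6 of the 12 arrays of the study, with 3 per construct. All cells came from the marrow of PepC3 mice, the F1 cross of C57Bl/6Ly-Pep3b with C3H/HeJ, that had received 5-fluorouracil. The marrow was first infected with a retrovirus for NUP98-HOXD13 (ND13-GFP or ND13pac) and grown for 4 weeks in DMEM with 15% FBS, 10 ng/ml hIL-6, 6 ng/ml mIL-3 and 100 ng/ml mSCF. A second retrovirus was added during 2 days of co-culture with irradiated E86 producer cells and protamine sulfate, so every array, controls included, comes from cells that hold NUP98-HOXD13 and a second virus. In the MEIS1-deltaHD group the second virus encoded MEIS1 whose homeodomain had been deleted. In the M33-MEIS1 group it encoded M33-MEIS1, which is taken here from its name as a fusion of MEIS1 with M33, an older name of the mouse gene Cbx2. The remaining 6 arrays, 3 with the YFP vector (MIY-ctrl) and 3 with wild-type MEIS1 (MEIS1-WT), entered the same model and are quoted for their levels. RNA was extracted with Trizol from sorted cells. The sequences of the constructs, the parts of each protein they keep, the gate of the sort and which NUP98-HOXD13 virus a given array had are not described in the sources used. The labels speak of independent experiments for each condition, with no word on whether an experiment used separate mice, so p-values measure the spread between these cultures.

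NUP98-HOXD13 is a leukaemia fusion protein that keeps the homeodomain of HOXD13 and blocks the maturation of myeloid progenitors. MEIS1 is a homeodomain protein of the TALE class that binds DNA through its homeodomain, joins HOX and PBX proteins in complexes through other parts, and speeds leukaemia driven by HOX fusions. CBX2 is a chromobox subunit of Polycomb repressive complex 1, which binds methylated histone H3 and holds genes silent. Mast cells, basophils, monocytes and neutrophils all arise from the myeloid progenitors that IL-3 and stem cell factor expand in such cultures, and each stores or secretes a set of proteins by which it is recognised.

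Mpo, the peroxidase of early myeloid granules, read high in both groups, with a mean signal of 6843 ± 269 (SD, n = 3) with MEIS1-deltaHD and 7592 ± 795 with M33-MEIS1. Cd3e of T cells and Col1a1 of fibroblasts were near the floor with M33-MEIS1, at means of 8.18 and 2.73. Each is 1 of 19 measured genes of its list, and other members read higher. With M33-MEIS1 the lists summed to 248 to 271 for T and NK cells and 394 to 434 for fibroblasts. Signals are linear array values in arbitrary units, scaled so that the mean of each array without its extreme 2% at either end was 100. The median signal of an array was 13.1 to 13.9 with MEIS1-deltaHD and 14 to 16 with M33-MEIS1. Replicate 3 of M33-MEIS1 stood apart: it correlated at 0.980 and 0.982 with the other arrays of its group, which correlated at 0.986 with each other, and it had the highest Gapdh 3′ to 5′ ratio of the 12 arrays, 0.882. Replicate 2 of M33-MEIS1 correlated at 0.988 with 1 MEIS1-deltaHD array and at 0.986 with the nearest array of its own group. These correlations are across probe sets, which are not independent replicates.

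Mast cell and basophil proteases, monocyte genes and a few chemokines were higher with M33-MEIS1 than with MEIS1-deltaHD, and few genes were lower. Of 45037 probe sets, 83 passed at an adjusted p below 0.05, which is 0.184% (limma on log2(signal + 16) over all 12 arrays, Benjamini-Hochberg over all probe sets). Among them 77 were higher with M33-MEIS1 (0.171%) and 6 were lower (0.0133%), and in 31 the log2 difference was at least 1 in size. At an unadjusted p below 0.05, 2351 were higher and 1544 lower. With 1 probe set for each of 18193 genes, the one of highest mean log2(signal + 16), 53 genes passed (0.291%), 50 higher (0.275%) and 3 lower (0.0165%). At an unadjusted p below 0.05, 6.5% of all genes were higher and 3.31% lower, and 56.1% of all differences lay above 0 and 43.9% below. All 83 had the 3 arrays of one group beyond the 3 of the other. Such a gap was seen upward in 8.32% and downward in 6.04% of all probe sets, and in 9.6% and 5.86% of all genes, so it is common by itself. The count fell to 35 without M33-MEIS1 replicate 1, 51 without replicate 2, 32 without replicate 3, and 28 without MEIS1-deltaHD replicate 1 or replicate 2, and it was 82 without MEIS1-deltaHD replicate 3. It was 32 with median scaling, 21 without an intensity trend in the variance and 156 after a filter on dim probe sets. All 83 kept their direction in every such fit that tested them. Of the 83, 25 passed in all 6 leave-one-out fits and 12 in none. In the same model 1143 probe sets passed between MEIS1-WT and MEIS1-deltaHD and 1432 between MEIS1-WT and M33-MEIS1, comparisons that share these arrays. An exact permutation of 3 arrays against 3 has 0.1 as its lowest two-sided p, so each call rests on the spread that limma shares across probe sets and groups.

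**Figure D1:**
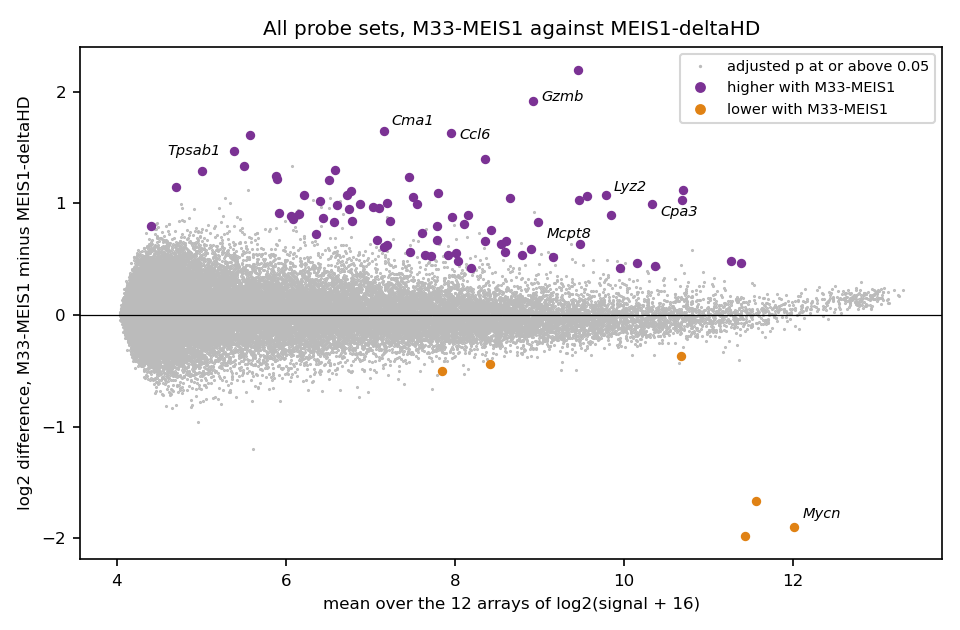
Each point is 1 of 45037 probe sets, with the mean of log2(signal + 16) over the 12 arrays on the x axis and the log2 difference of M33-MEIS1 minus MEIS1-deltaHD on the y axis. The 77 purple points passed as higher with M33-MEIS1 and the 6 orange points as lower, and 3 of the 6, Mycn among them, lie far below the rest.

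The probe sets of the introduced genes were read first. Cbx2 has 2 probe sets. The dimmer one, 1422059_at, read 13.2, 12.2 and 8.68 on the MEIS1-deltaHD arrays and 40.9, 59.8 and 53.1 on the M33-MEIS1 arrays, with means of 7.12 in MIY-ctrl and 10.2 in MEIS1-WT. It was high on the arrays of the group whose construct carries M33 and on no other array, with a log2 difference of 1.29 ± 0.222 (SE) and an adjusted p of 0.0188 (limma). The call held in 1 of 6 leave-one-out fits, that without M33-MEIS1 replicate 1 (adjusted p elsewhere 0.0814 to 0.110). The brighter one, 1434116_at, read 64.8, 43.7 and 64.5 against 72.9, 66.1 and 52.7, and the groups overlapped (log2 difference 0.12 ± 0.167, 95% interval -0.23 to 0.47, adjusted p = 0.896). None of the 3 Meis1 probe sets passed. The brightest, 1450992_a_at, read 100.1, 109.5 and 120.0 with MEIS1-deltaHD and 133, 113 and 104 with M33-MEIS1 (log2 difference 0.07 ± 0.108, 95% interval -0.16 to 0.30). The difference was 0.0079 for 1443260_at and 0.23 for 1459423_at, and the arrays of the groups overlapped for all 3. With MEIS1-WT the 3 means were 141, 80.99 and 14.97, below those of 187, 148 and 18.4 with the empty vector. No Meis1 probe set was thus raised by a MEIS1 virus, and these probe sets do not check the labels of the constructs. Which probe sets read the RNA of a construct was not tested.

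**Figure D2:**
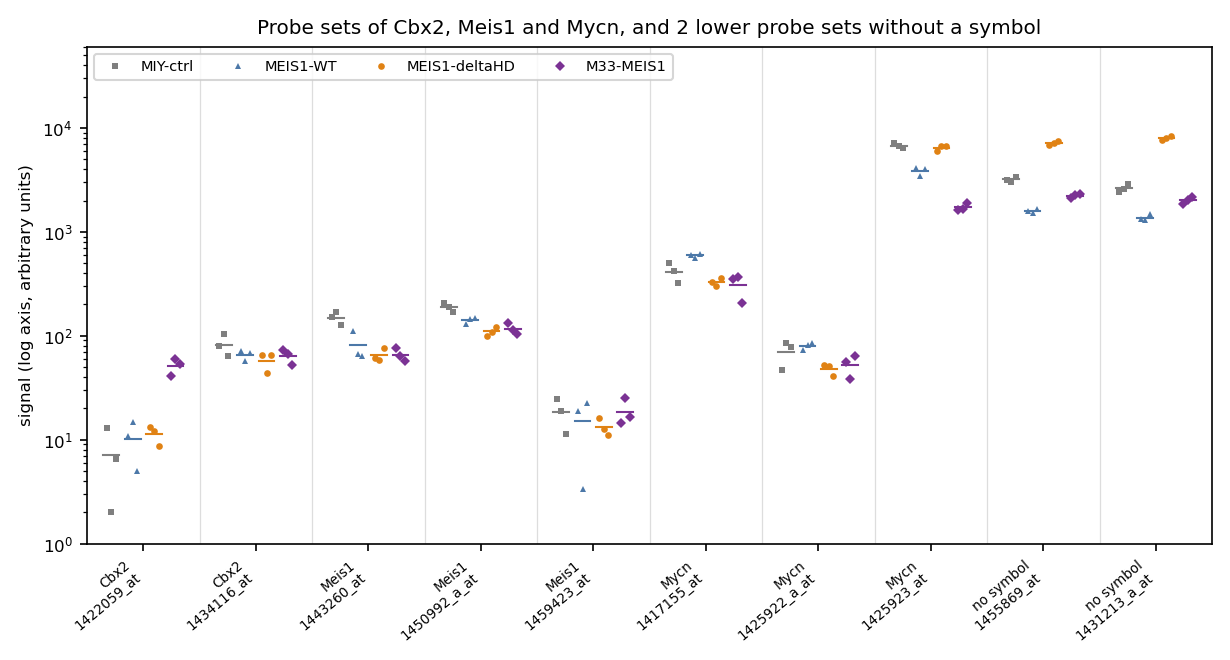
Signal of each array on a log axis for the probe sets of Cbx2, Meis1 and Mycn and for 2 probe sets without a symbol, by group (3 arrays each, the bar is the mean). Cbx2 1422059_at was high on the M33-MEIS1 arrays, Meis1 did not separate the groups, and 1 of 3 Mycn probe sets and both unnamed probe sets were lower with M33-MEIS1 than with MEIS1-deltaHD.

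Most granule proteases of mast cells and basophils were higher with M33-MEIS1. These enzymes are stored in secretory granules with histamine and heparin and set free when the cell is activated. Of 9 measured genes of the list, 6 passed as higher and none as lower, where 0.275% of all genes passed as higher, and all 9 differences lay above 0. The median log2 difference was 0.99, against 0.025 over all genes. The count of 6 fell to 4 without M33-MEIS1 replicate 1 or MEIS1-deltaHD replicate 2, and 3 of 5 measured passed without probe sets marked _s, _x or _a, which leaves out Cma1 and both tryptases. Summed over the list, the signal was 1754 to 2137 on the MEIS1-deltaHD arrays and 4207 to 4658 on the M33-MEIS1 arrays. It was 2531 to 3981 in MIY-ctrl and 1446 to 1619 in MEIS1-WT, so MEIS1-deltaHD lay near MEIS1-WT and M33-MEIS1 lay above the control. In bulk RNA a larger share of such cells and more of this RNA per cell cannot be told apart.

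Gzmb encodes granzyme B, a serine protease of cytotoxic lymphocytes that mast cells in culture also make. Its signal was 225, 201 and 349 with MEIS1-deltaHD and 894, 946 and 1157 with M33-MEIS1. Every M33-MEIS1 array was above every MEIS1-deltaHD array, by 3.87 times at the means, and the log2 difference was 1.92 ± 0.189 (adjusted p = 6.31e-05, limma). In the other groups it read 984, 1183 and 651 with the empty vector and 224, 178 and 214 with MEIS1-WT. The levels thus fell into a high pair of groups, MIY-ctrl and M33-MEIS1, and a low pair, MEIS1-WT and MEIS1-deltaHD.

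Cma1 encodes mast cell chymase. It read 80.4, 43.4 and 96.8 with MEIS1-deltaHD and 289, 252 and 227 with M33-MEIS1, without overlap, and the log2 difference was 1.65 ± 0.247 (adjusted p = 0.00602, limma). The call was lost without M33-MEIS1 replicate 1 (adjusted p = 0.0551) and without MEIS1-deltaHD replicate 2 (adjusted p = 0.0519), whose 43.4 was the lowest value, and it was also lost without the intensity trend (adjusted p = 0.0918). The tryptases Tpsab1 and Tpsb2 are neighbours on chromosome 17, with no gene between them in the RefSeq table, and their sequences are near-identical, so the array may not tell them apart. Tpsab1 read 8.17, 12.7 and 20.4 against 61.3, 61.8 and 72.5, and Tpsb2 read 10.3, 12.5 and 19.8 against 63.7, 43.1 and 75.2. Both were dim with MEIS1-deltaHD and several times brighter on all 3 M33-MEIS1 arrays, with log2 differences of 1.47 ± 0.201 (adjusted p = 0.00246) and 1.33 ± 0.215 (adjusted p = 0.0123). Tpsab1 passed in all 6 leave-one-out fits. Tpsb2 passed in 2 of them and was lost without M33-MEIS1 replicate 1 or 3 (adjusted p = 0.0695 and 0.110) and without MEIS1-deltaHD replicate 1 or 2 (adjusted p = 0.1001 and 0.0989). The Tpsb2 call rests on 1 of its 2 probe sets.

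Cpa3 encodes the carboxypeptidase of mast cell and basophil granules. It read 893, 992 and 1014 with MEIS1-deltaHD and 1926, 1867 and 2024 with M33-MEIS1, 2.01 times as much at the means (log2 difference 0.99 ± 0.118, adjusted p = 0.000645, limma). The control vector gave 1661, 2102 and 1303 and MEIS1-WT gave 890.1, 793 and 855. Mcpt8, a basophil protease, read 477, 472 and 553 against 865, 899.7 and 945, and its log2 difference of 0.83 ± 0.0738 had an adjusted p of 1.62e-05. MIY-ctrl read 377, 361 and 387 and MEIS1-WT 331, 345 and 349, so all M33-MEIS1 arrays lay above every array of the other groups. Cpa3, Mcpt8, Gzmb and Tpsab1 passed in every alternative fit that tested them.

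The other 3 members missed the threshold. Mcpt2, a mucosal mast cell protease, read 57.3, 73.8 and 70.4 with MEIS1-deltaHD and 139, 122 and 146 with M33-MEIS1 (log2 difference 0.87 ± 0.207, adjusted p = 0.142), and these arrays did not overlap. Mcpt4, the chymase of connective tissue mast cells, was at 1.27, 1.12 and 2.24 against 14.2, 6.44 and 9.72, near the floor of the array (log2 difference 0.56 ± 0.132, adjusted p = 0.134). Mcpt1, also of mucosal mast cells, overlapped (0.13 ± 0.194, 95% interval -0.28 to 0.54).

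**Figure D3:**
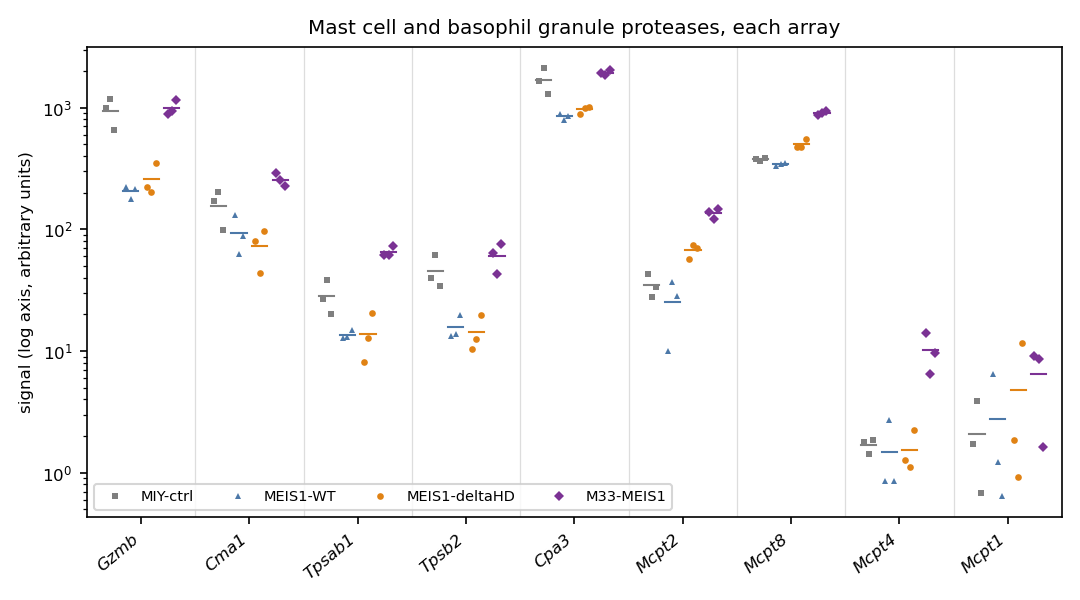
Signal of each array on a log axis for the 9 measured mast cell and basophil proteases, by group (3 arrays each, the bar is the mean). The M33-MEIS1 arrays lie above the MEIS1-deltaHD arrays for every gene but Mcpt1, and for Gzmb, Cpa3, Tpsab1, Tpsb2 and Cma1 the MEIS1-deltaHD arrays lie near MEIS1-WT.

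Cma1, Mcpt8 and Gzmb stand in 1 run of 15 protein-coding genes on chromosome 14 that begins with Cma1 and ends with Gzmb, by the order of the RefSeq gene table. Of 13 measured genes of this run, these 3 passed. Ctsg, the neutrophil serine protease cathepsin G, is the neighbour of Mcpt8. It read 5371, 5744 and 5389.9 with MEIS1-deltaHD and 6160.0, 5436 and 6241 with M33-MEIS1, which overlapped (log2 difference 0.11 ± 0.0776, 95% interval -0.05 to 0.27, adjusted p = 0.746). The granzyme genes between Ctsg and Gzmb all had mean signals under 10 in both groups. Mcpt2 and Mcpt4, also in the run, had arrays apart at 0.87 and 0.56 without passing (adjusted p = 0.142 and 0.134, limma). Calls in the run therefore stood beside genes that did not pass, and those granzyme genes were near the floor of the array.

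The promoters of 4 higher genes are shown. Mcpt8, Lgals3 and Mmp8 were chosen because their promoters hold TGACAG, so its presence in them was fixed by the choice. Il1r2 also met that rule and is not printed. F13a1 and Fcgr3, monocyte genes that passed, hold TGACAG too. They were left out because only genes with a single promoter window were taken. Gzmb was added as the protease with the largest difference. The promoters of Cma1, Cpa3, Ccl6, Lyz2, Ctss and Tgfbi held no TGACAG. Gzmb and Mcpt8 belong to the protease run, Lgals3 to the monocyte list and Mmp8 to the late neutrophil list. Each is the 250 bases before the RefSeq start of the gene in build GRCm38.p6, 5′ to 3′ on the strand of the gene. Capitals mark the letters TGACAG, the core bound by MEIS proteins, or AGGAAG, the core bound by the myeloid factor PU.1, on either strand.
Gzmb, chr14:56262335-56262584, minus strand: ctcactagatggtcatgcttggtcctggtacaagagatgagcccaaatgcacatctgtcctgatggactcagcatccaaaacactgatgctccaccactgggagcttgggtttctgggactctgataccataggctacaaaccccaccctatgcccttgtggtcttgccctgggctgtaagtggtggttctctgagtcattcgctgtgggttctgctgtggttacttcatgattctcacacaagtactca
Mcpt8, chr14:56085198-56085447, minus strand: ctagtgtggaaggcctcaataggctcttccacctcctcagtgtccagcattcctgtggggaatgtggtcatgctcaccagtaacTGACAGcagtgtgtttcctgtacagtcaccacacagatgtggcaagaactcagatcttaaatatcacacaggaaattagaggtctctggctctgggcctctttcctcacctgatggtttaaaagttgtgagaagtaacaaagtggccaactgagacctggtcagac
Lgals3, chr14:47373610-47373859, plus strand: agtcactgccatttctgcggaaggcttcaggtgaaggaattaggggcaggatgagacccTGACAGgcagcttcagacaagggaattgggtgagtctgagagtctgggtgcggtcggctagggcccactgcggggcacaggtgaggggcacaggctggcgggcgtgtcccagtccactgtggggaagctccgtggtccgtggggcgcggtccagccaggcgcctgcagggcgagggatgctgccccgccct
Mmp8, chr9:7558179-7558428, plus strand: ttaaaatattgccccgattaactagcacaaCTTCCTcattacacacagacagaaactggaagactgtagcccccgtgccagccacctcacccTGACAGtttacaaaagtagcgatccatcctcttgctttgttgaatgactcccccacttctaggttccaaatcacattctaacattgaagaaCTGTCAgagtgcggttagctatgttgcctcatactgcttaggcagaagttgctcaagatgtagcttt

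The Gzmb window held neither set of letters. The MEIS core began 166 bases before the start in Mcpt8 and 191 bases before it in Lgals3, and Mmp8 held it at 158 and, on the opposite strand, at 67 bases, with the PU.1 core at 220 bases. Promoter windows were found for 42 of the 50 higher genes, 47 windows in all, and for 4 of the 6 higher proteases, since Tpsab1 and Tpsb2 had no window. TGACAG was in 10 of the 47 windows (21.3%), against 15.9% of all 32851 windows of the table. AGGAAG was in 24 (51.1%), against 29.5%. The GATA letters AGATAA were in 4 (8.51%, against 9.99%) and the E-box CATGTG, of the kind that MITF binds, was in 6 (12.8%, against 12.3%). Both strands were searched, and none of the 4 motifs lies within another. These counts describe letters in a window, and the genes were picked by the comparison itself, so no test was made.

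Genes of the IgE receptor, histamine and the mast cell membrane gave 1 call among 22 measured, where 0.275% of all genes passed as higher. It was Hdc, histidine decarboxylase, the enzyme that makes histamine. The signal of Hdc was 194, 191 and 171 with MEIS1-deltaHD and 339, 282 and 296 with M33-MEIS1, with MIY-ctrl at 129, 151 and 164 (log2 difference 0.67 ± 0.109, adjusted p = 0.0123, limma), and its second probe set gave 0.67 (adjusted p = 0.0123). MEIS1-WT read 179, 228 and 228. M33-MEIS1 thus lay above every array of the other groups, and the control vector was the lowest group by mean, at 148. The Hdc call held in 1 of 6 leave-one-out fits and was lost without M33-MEIS1 replicate 1 or 3 (adjusted p = 0.0837 and 0.0607) and without MEIS1-deltaHD replicate 1, 2 or 3 (adjusted p = 0.0557, 0.0706 and 0.0597). A further 10 of the list were higher at an unadjusted p below 0.05, where 6.5% of all genes were, with a list median of 0.32. Among those that missed the adjusted threshold were Fcer1a, the IgE-binding chain, at 0.50 (adjusted p = 0.260), Ms4a2, the beta chain of that receptor, at 0.43 (adjusted p = 0.200), and Mitf, a transcription factor of mast cells, at 0.52 (adjusted p = 0.261). Kit, the receptor for stem cell factor and a defining gene of mast cells, read 312, 298 and 313 against 245, 267 and 260.4 and pointed the other way (-0.24 ± 0.0913, adjusted p = 0.445). Srgn, the proteoglycan core that holds proteases in granules, overlapped at 5042, 5199 and 5499 against 5812, 5202 and 6379. The eosinophil list had no call among 6 measured genes, where 0.291% of all genes passed.

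Monocyte and macrophage genes were the other group with many calls. Of 33 measured, 9 passed as higher with M33-MEIS1 and none as lower, where 0.275% of all genes passed as higher, with a list median of 0.39. Summed over the list the signal was 6429 to 7082 with MEIS1-deltaHD and 9508 to 10749 with M33-MEIS1. The control vector was far above both, at 26576 to 29719, and MEIS1-WT below both, at 3604 to 4029.8. The groups therefore ranked MIY-ctrl, M33-MEIS1, MEIS1-deltaHD and MEIS1-WT from high to low, with no overlap of the sums. Among leave-one-out fits the count of 9 fell furthest to 4 without MEIS1-deltaHD replicate 1 and to 5 without MEIS1-deltaHD replicate 2 or M33-MEIS1 replicate 1, and it was 5 with median scaling and 2 without the intensity trend.

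Lyz2, lysozyme M of myeloid cells, read 621, 613 and 655 with MEIS1-deltaHD and 1327, 1241 and 1467 with M33-MEIS1. Every M33-MEIS1 array was above every MEIS1-deltaHD array, by 2.14 times at the means, and the log2 difference was 1.07 ± 0.0798 (adjusted p = 1.57e-06, limma). In MIY-ctrl it read 5307, 5527 and 5339 and in MEIS1-WT 126, 101 and 107, so the step between the compared groups was small beside that to the control. Ctss, the lysosomal protease cathepsin S, read 219, 242 and 286 against 519, 490.3 and 582 (1.05 ± 0.117, adjusted p = 0.000294). Lgals3, the sugar-binding protein galectin-3, read 559.9, 595 and 716 against 1199, 1049 and 1272 (0.90 ± 0.115, adjusted p = 0.00133). These 3 genes were separated on every array and passed in all 6 leave-one-out fits, as did Tgfbi, a secreted matrix protein, at 130.3, 136 and 162 against 341, 330.2 and 295 (1.09 ± 0.141, adjusted p = 0.00135). For Lgals3 and Tgfbi the call was lost without the intensity trend (adjusted p = 0.0628 and 0.0548), and for Tgfbi also with 1 in place of 16 added to the signal (adjusted p = 0.0501).

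Receptors were among the 9. Csf1r, the M-CSF receptor that defines the monocyte lineage, read 413, 409 and 452 with MEIS1-deltaHD and 618, 628 and 656 with M33-MEIS1, while MEIS1-WT read 34.3, 36.9 and 25.7. The M33-MEIS1 arrays were all above, by 0.56 ± 0.0882 on the log2 scale (adjusted p = 0.00985, limma). That call was lost without M33-MEIS1 replicate 3 (adjusted p = 0.0713) and without MEIS1-deltaHD replicate 1 or 2 (adjusted p = 0.0805 and 0.0989). It rests on 1 of 3 probe sets, with the others at 0.57 and 0.47 and arrays apart (adjusted p = 0.236 and 0.292, limma). Ccr2, the chemokine receptor that draws monocytes from marrow, read 282, 329 and 326 against 527, 512 and 446 (0.64 ± 0.109, adjusted p = 0.0179). It kept its call in 2 of 6 leave-one-out fits, those without M33-MEIS1 replicate 3 and without MEIS1-deltaHD replicate 3, and the adjusted p without each of the others ran from 0.0800 to 0.148. The Ccr2 call rests on 1 of 4 probe sets. Of the rest, 1421187_at and 1460067_at both gave 0.46 with arrays apart (adjusted p = 0.0604 and 0.528, limma). Probe set 1421188_at pointed the other way and overlapped (-0.155, adjusted p = 0.882, limma). Ms4a6d, a membrane protein of monocytes, read 61.7, 80.9 and 70.7 against 186, 147 and 144 (1.01 ± 0.152, adjusted p = 0.00648). Its call was lost without M33-MEIS1 replicate 1 and without MEIS1-deltaHD replicate 1 (adjusted p = 0.0590 and 0.0676). F13a1, a clotting factor chain made by monocytes and platelets, at 0.89 (adjusted p = 0.0378), and Fcgr3, a receptor for IgG, at 0.42 (adjusted p = 0.0432), each passed in 1 of 6 leave-one-out fits. F13a1 passed only without MEIS1-deltaHD replicate 3 and Fcgr3 only without M33-MEIS1 replicate 2, with adjusted p elsewhere of 0.0712 to 0.265 and 0.0740 to 0.268.

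Several macrophage genes of the same list did not pass. Cd14, a receptor for bacterial lipopolysaccharide, read 434, 409 and 413 against 461, 382 and 437 (log2 difference 0.022 ± 0.113, 95% interval -0.22 to 0.26). Cd68 read 195, 174 and 193 against 197, 207 and 233 (0.17 ± 0.106, adjusted p = 0.716), and Adgre1, which encodes F4/80, read 135, 120.1 and 132 against 167, 148 and 165 (0.28 ± 0.120, adjusted p = 0.528). The arrays of the groups were apart, by small margins, for Cd68 and Adgre1 and overlapped for Cd14. The complement genes C1qa, C1qb and C1qc and the scavenger receptors Cd163 and Marco had mean signals under 10 in both groups.

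**Figure D4:**
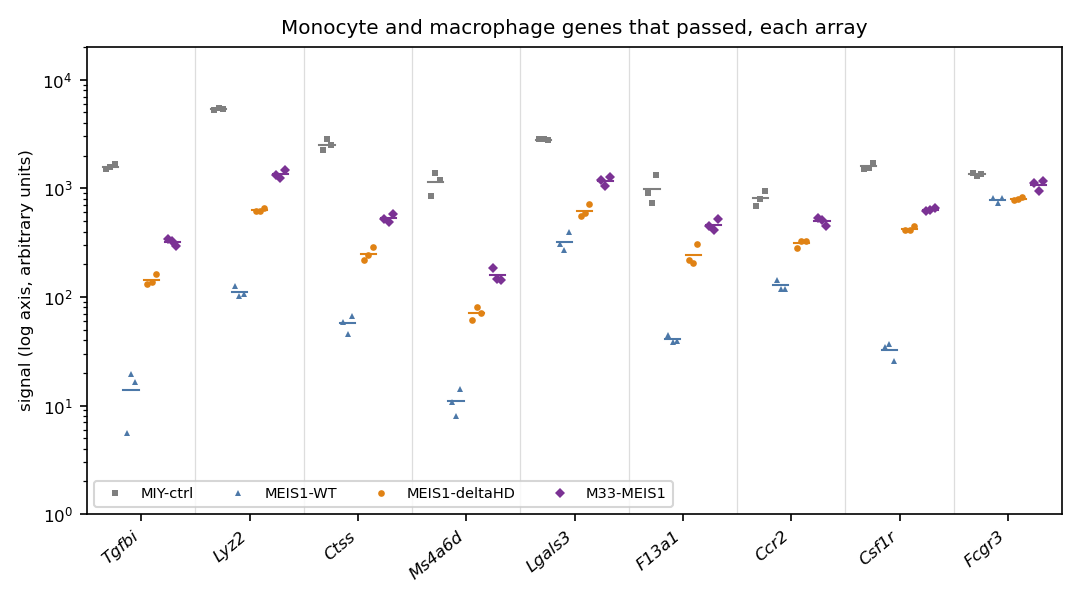
Signal of each array on a log axis for the 9 monocyte and macrophage genes that passed, by group (3 arrays each, the bar is the mean). For each gene the M33-MEIS1 arrays lie above the MEIS1-deltaHD arrays and below the MIY-ctrl arrays.

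Of 21 measured genes of secondary granules and late neutrophils, 2 passed as higher with M33-MEIS1, Lyz2 and Mmp8, where 0.275% of all genes did. At an unadjusted p below 0.05, 8 were higher and none lower, where 6.5% of all genes were higher. In 9 the M33-MEIS1 arrays lay above all MEIS1-deltaHD arrays, against 9.6% of all genes, 19 differences lay above 0 and the median was 0.14. The summed signal was 7640.0 to 8145 with MEIS1-deltaHD and 9753 to 10859 with M33-MEIS1, so the sums did not overlap. Lyz2 is also among the 9 monocyte and macrophage calls and is part of the sums of both lists, so these lists are not separate. Mmp8, neutrophil collagenase, read 371, 469 and 526 with MEIS1-deltaHD and 936, 889.7 and 1059.8 with M33-MEIS1, all higher, and the log2 difference was 1.06 ± 0.126 (adjusted p = 0.000645, limma). S100a9, a calcium-binding protein of neutrophils and monocytes, read 749, 893 and 657 against 1036, 947 and 1150.3, apart but not past the threshold (0.45 ± 0.140, adjusted p = 0.314). The granule genes Ltf (20.1, 11.3 and 7.17 against 8.15, 12.7 and 19.7) and Camp (25.9, 26.9 and 18.6 against 15.8, 22.1 and 44.6) were dim and overlapped. None of 15 primary granule genes passed (limma), where 0.291% of all genes did. In this list 1 was higher and 1 lower at an unadjusted p below 0.05 (6.5% and 3.31% of all genes). Mpo differed by 0.15 ± 0.0823 (95% interval -0.029 to 0.32) and Elane, neutrophil elastase, by -0.20 ± 0.204 (95% interval -0.63 to 0.23). A second lysozyme gene, Lyz1, passed on 2 of its 3 probe sets, at 2.19 and 1.03. Both carry a suffix for probes that match several sequences, and the third, 1450822_at, read 14.4, 6.86 and 6.43 against 2.21, 7.22 and 13.2, so Lyz1 is reported as uncertain beside Lyz2.

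Few signalling genes passed. Ccl6, a chemokine of myeloid cells, read 147, 145 and 145 with MEIS1-deltaHD and 472, 408 and 588 with M33-MEIS1. The MEIS1-deltaHD arrays were nearly equal and all M33-MEIS1 arrays far above (3.36 times at the means, log2 difference 1.63 ± 0.116, adjusted p = 9.42e-07, limma). Pf4, platelet factor 4, a chemokine of megakaryocytes, read 335, 346 and 517 against 720.5, 694 and 1083 (1.03 ± 0.178, adjusted p = 0.0196). Its call was lost without M33-MEIS1 replicate 1 or 3 (adjusted p = 0.0542 and 0.145) and without MEIS1-deltaHD replicate 1 or 2 (adjusted p = 0.165 and 0.173). These were 2 of 20 measured chemokines. Ccl3, an inflammatory chemokine high in both groups, read 1607, 1739 and 2498 against 1794, 1885 and 1594 and overlapped (-0.12 ± 0.126, 95% interval -0.39 to 0.14). The mean of Pf4 was 523 in MIY-ctrl and 1395 in MEIS1-WT, so MEIS1-deltaHD was its lowest group. Pf4 was also the call of the megakaryocyte list, where 1 of 20 measured passed (0.275% of all genes). In that list 11 were higher at an unadjusted p below 0.05 (6.5% of all genes) and the median was 0.37. The list summed to 3329 to 3817 with MEIS1-deltaHD and 4559 to 5318 with M33-MEIS1. Both lay below MIY-ctrl (5997 to 7268) and MEIS1-WT (5425 to 6424). Itga2b, the platelet integrin CD41, was among the rest at 226, 214 and 235 against 322, 302 and 318 (0.45 ± 0.109, adjusted p = 0.146).

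Chemokine receptors gave 2 calls of 11 measured, Ccr2 and Ccr1. Ccr1, a receptor for several CC chemokines, read 242, 257 and 299 against 443, 449 and 492 (0.76 ± 0.109, adjusted p = 0.00400), and it was lost without MEIS1-deltaHD replicate 1 (adjusted p = 0.0512). Its second probe set gave 0.76 with arrays apart and did not pass (adjusted p = 0.155, limma). The 0.275% of all genes stands beside each of these lists too. Cytokine receptor chains gave 2 calls of 24. Il1r2, the decoy receptor for IL-1, read 62.2, 43.8 and 70.2 against 139.7, 90.8 and 124 (0.84 ± 0.157, adjusted p = 0.0362). Csf2rb2, the beta chain used by the mouse IL-3 receptor, read 380.3, 333 and 396 against 543, 552 and 536 (0.54 ± 0.0909, adjusted p = 0.0161). Il1r2 passed in 2 and Csf2rb2 in 1 of 6 leave-one-out fits: Il1r2 was lost without M33-MEIS1 replicate 1 or 3 or MEIS1-deltaHD replicate 1 or 2 (adjusted p up to 0.243), and Csf2rb2 was kept only without MEIS1-deltaHD replicate 3 (adjusted p elsewhere up to 0.144). Csf2rb, the common beta chain, read 1392, 1419.9 and 1453 against 1824, 1924 and 2101 and just missed (0.45 ± 0.0908, adjusted p = 0.0580), and Il3ra, the IL-3-binding chain, overlapped at 15.96, 17.5 and 22.9 against 20.5, 20.2 and 11.4. Itgb7, an integrin chain that homes mast cell progenitors to the gut, at 0.48 (adjusted p = 0.0239), was 1 of 16 adhesion genes. Ccng1, cyclin G1, at 0.46 (adjusted p = 0.0448), was 1 of 17 p53 targets. Neither Itgb7 nor Ccng1 passed in any of 6 leave-one-out fits (adjusted p 0.0512 to 0.213 and 0.0573 to 0.308).

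The genes lower with M33-MEIS1 were few. Mycn, the MYC family member of progenitor cells, read 5961, 6627 and 6759.5 on probe set 1425923_at with MEIS1-deltaHD and 1631, 1661 and 1878 with M33-MEIS1. The M33-MEIS1 mean was 0.267 of the MEIS1-deltaHD mean, and the arrays within each group were close to each other (log2 difference -1.89 ± 0.0866, adjusted p = 1.04e-09, limma). In MIY-ctrl it read 7178, 6733 and 6331 and in MEIS1-WT 4066, 3449 and 3998, so M33-MEIS1 was the lowest of the 4 groups. Its other probe sets did not show this. Probe set 1417155_at read 326, 302 and 356 against 349.7, 370.1 and 207 (log2 difference -0.12 ± 0.167, 95% interval -0.47 to 0.23), and 1425922_a_at read 52.5, 51.3 and 40.9 against 55.8, 38.4 and 64.3 (0.09 ± 0.180). The Mycn probe sets thus disagree, and the fall rests on 1 of 3. It was the call of both lists that hold Mycn, 1 of 12 genes of the Myc and Max network and 1 of 23 stem and progenitor cell regulators, where 0.0165% of all genes passed as lower.

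All 3 large falls, that of Mycn included, passed in all 6 leave-one-out fits. The other two were on probe sets without a gene symbol. Probe set 1431213_a_at read 7580.4, 7962 and 8269 with MEIS1-deltaHD and 1839, 2016 and 2164 with M33-MEIS1 (log2 difference -1.98 ± 0.0840, adjusted p = 5.76e-10). It was at 2406, 2599 and 2862 in MIY-ctrl and 1327, 1295 and 1491 in MEIS1-WT, so MEIS1-deltaHD was the group that stood out, upward. Probe set 1455869_at followed the same order, at 6773, 7081 and 7508 against 2102, 2260.4 and 2320.2 (log2 difference -1.67 ± 0.0718, adjusted p = 5.76e-10), with 3178, 3039 and 3384 in MIY-ctrl and 1588, 1525 and 1645 in MEIS1-WT. Smaller falls were seen for Ift27, a GTPase of ciliary transport (-0.50 ± 0.0980, adjusted p = 0.0460), Atp5g1, a subunit of mitochondrial ATP synthase (-0.36 ± 0.0695, adjusted p = 0.0432), and 1 probe set of Hsph1, a heat shock chaperone (-0.44 ± 0.0779, adjusted p = 0.0239). The Hsph1 call held in 1 leave-one-out fit, that without M33-MEIS1 replicate 2 (adjusted p elsewhere 0.0793 to 0.212). Ift27 and Atp5g1 passed in none of the 6 leave-one-out fits (adjusted p 0.0516 to 0.288 and 0.0811 to 0.226).

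None of 20 genes linked to Meis1 in leukaemia work passed in limma. Over all genes 0.291% passed, so a list of 20 would seldom hold a call. At an unadjusted p below 0.05, 2 of the 20 were higher and 3 lower (6.5% and 3.31% of all genes). Dlk1, a membrane protein related to Notch ligands, had the highest difference of the list. It read 106, 103 and 117 with MEIS1-deltaHD and 144, 162 and 170.5 with M33-MEIS1, all higher (0.49 ± 0.107, adjusted p = 0.0885), against a mean of 1633 with MEIS1-WT. With log2(signal + 1) and after the filter on dim probe sets, 1 of the list passed as higher. Flt3, a receptor kinase that MEIS1 raises in leukaemia models, read 120.2, 133 and 99.4 with MEIS1-deltaHD and 67.6, 91.4 and 94.1 with M33-MEIS1, against a mean of 331 with MEIS1-WT. The M33-MEIS1 arrays all read below the MEIS1-deltaHD arrays, without passing (-0.41 ± 0.127, adjusted p = 0.297). Trib2, a pseudokinase of the same kind of list, was dim at 17.3, 13.05 and 7.77 against 11.4, 13.2 and 8.19, and both groups were under the mean of 61.6 with MEIS1-WT. Hlf, a stem cell transcription factor, read 97.2, 92.6 and 115 against 79.99, 75.5 and 60.2 (-0.42 ± 0.132, adjusted p = 0.310), where MEIS1-WT averaged 433. Cd34, a surface marker of progenitors, read 791, 832 and 809.6 against 707, 649 and 719.6 (-0.22 ± 0.0664, adjusted p = 0.266).

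The Hoxa genes gave 0 calls of 9 measured in limma, with 0 higher and 2 lower at an unadjusted p below 0.05. Over all genes 6.5% were higher and 3.31% lower at that level and 0.291% passed, shares that stand beside each list of this paragraph. Hoxa9, the partner of MEIS1 in myeloid leukaemia, was bright and overlapped at 1537, 1663 and 1657 against 1651, 1734 and 1568 (log2 difference 0.028 ± 0.0676, 95% interval -0.12 to 0.17). Hoxa7 read 314, 262 and 259.7 against 239.6, 255 and 196 (-0.26 ± 0.112, adjusted p = 0.535), and Hoxa4 read 36.8, 40.4 and 28.4 against 16.9, 22.9 and 15.5 (-0.57 ± 0.182, adjusted p = 0.322). These pointed down without passing. Of 10 TALE genes none passed, with 1 higher and 1 lower at an unadjusted p below 0.05, and Pbx3, the PBX protein of such complexes, read 763, 819 and 806 against 876, 794 and 735 (95% interval -0.16 to 0.18). Of 18 genes of Polycomb repressive complex 1 and 11 of complex 2 none passed, with 1 higher and 1 lower in the first and 1 higher in the second at an unadjusted p below 0.05. The first list reads Cbx2 by its brighter probe set, 1434116_at, and not by 1422059_at, which passed. Bmi1, a core subunit of the first, read 421, 464 and 501 against 464, 461 and 390.3 (-0.07 ± 0.0842, 95% interval -0.25 to 0.10).

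In all, 13 of 50 gene lists held a call and 37 held none, where 0.291% of all genes passed. Of the 53 genes that passed, 25 were in a list. Some, such as Mycn, Pf4, Csf1r and Ccr2, were in several, so the 13 lists are not separate. Cell cycle genes were in lists without a call. Among 29 genes of G1/S, 3 had a higher and 1 a lower level, and among 29 of G2/M, 0 and 2, at an unadjusted p below 0.05 (limma). Over all genes 6.5% were higher and 3.31% lower at that level. Of 28 interferon-response genes 7 were higher at that level, where 6.5% of all genes were, with a median of 0.25, and Rtp4, an interferon-induced gene, was nearest at 11.2, 19.3 and 15.7 against 38.5, 28.5 and 46.9 (adjusted p = 0.0545), where MIY-ctrl averaged 1534. Of 26 ribosome biogenesis genes 5 were lower at that level (3.31% of all genes), 22 differences lay below 0 (43.9% of all genes) and the median was -0.10. Of 24 AP-1 and Egr immediate early genes 2 were higher and 5 lower at that level (6.5% and 3.31% of all genes). In this list 17 differences lay below 0 (43.9% of all genes). Jun, a subunit of AP-1, read 214, 161 and 240.4 against 106, 154 and 112 (-0.66 ± 0.154, adjusted p = 0.131). Of 5 class III receptor kinases Csf1r passed as higher (0.275% of all genes did), while Kit and Flt3 pointed down without passing. The lists for B cells, T and NK cells, dendritic, erythroid, eosinophil and fibroblast cells, which the sort could hold, gave no call. The fibroblast list, which stands for the producer line, had 0 of 19 genes at an unadjusted p below 0.05 and a summed signal of 369.9 to 445 with MEIS1-deltaHD and 394 to 434 with M33-MEIS1. B cell genes summed to 70.4 to 91.9 and 100.3 to 131 and T and NK cell genes to 229 to 259 and 248 to 271, with 1 higher gene in each list at an unadjusted p below 0.05 (6.5% of all genes).

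**Figure D5:**
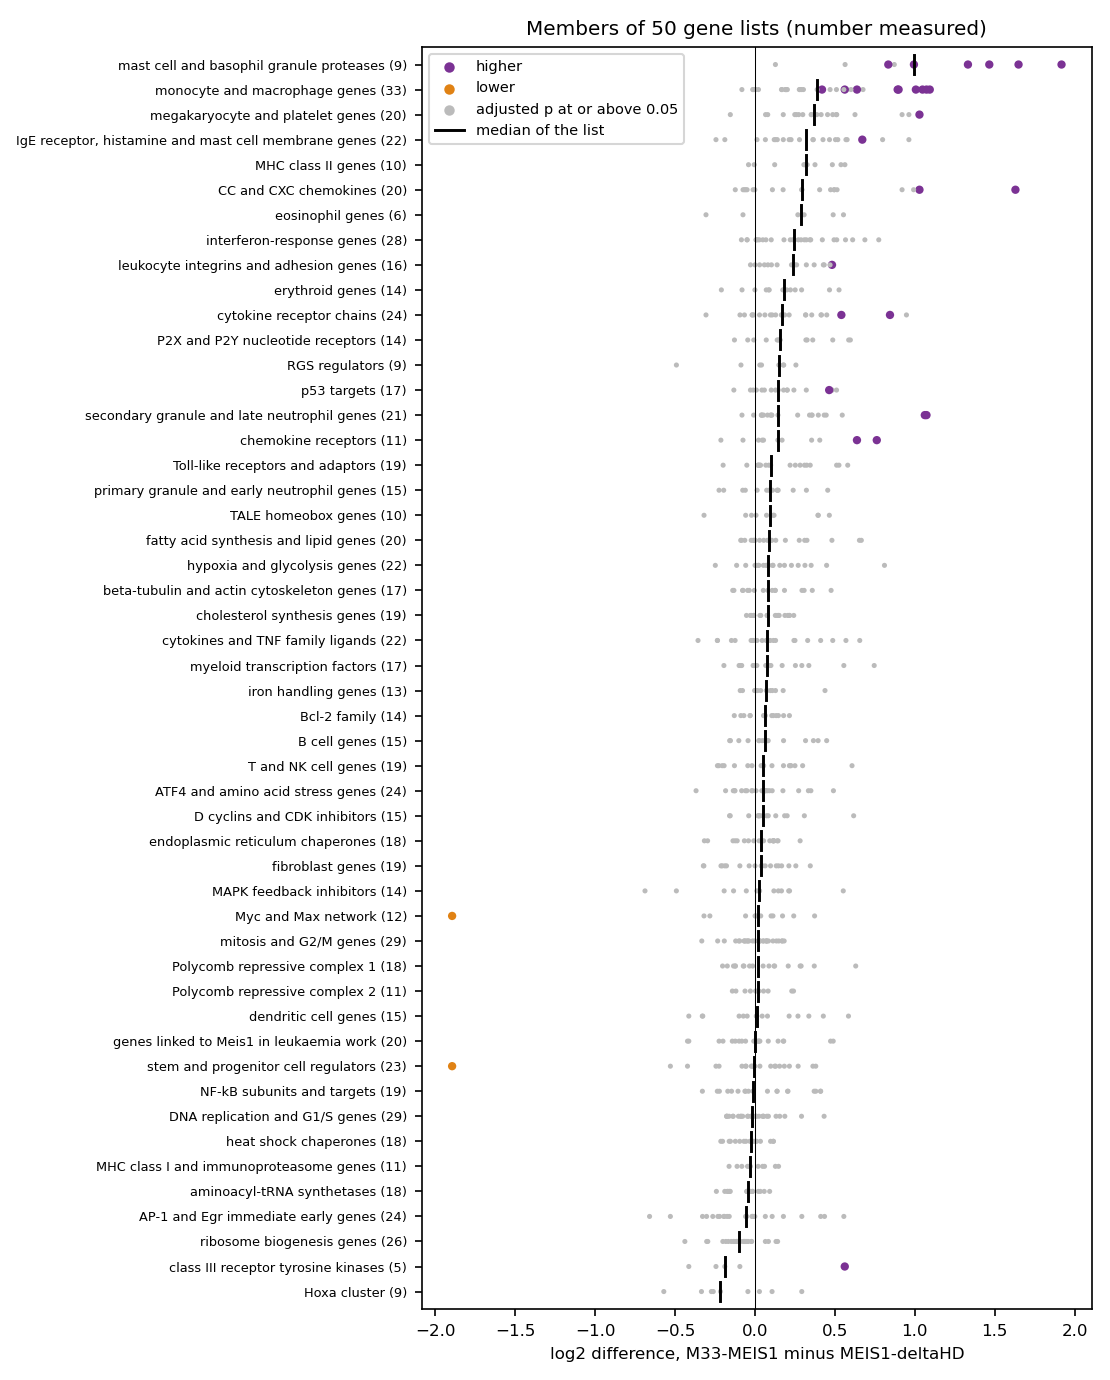
Log2 difference of M33-MEIS1 minus MEIS1-deltaHD for each measured member of 50 gene lists, ordered by the list median (black bar), with the number measured in brackets. Purple members passed as higher and orange ones as lower. The mast cell and basophil proteases have the highest median, 0.99, and the Hoxa cluster the lowest, -0.22.

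The threshold divided genes of like size. Just inside it were Ift27 (adjusted p = 0.0460) and Hemgn, a nuclear protein of blood progenitors, at 0.89 (adjusted p = 0.0468). Hemgn passed in 1 leave-one-out fit, that without M33-MEIS1 replicate 2 (adjusted p elsewhere up to 0.308). Just outside were Cfp, the complement regulator properdin, at 0.63 (adjusted p = 0.0501), Akr1c18, a steroid dehydrogenase, at 1.02 (adjusted p = 0.0510), and Map1lc3a, an autophagy protein, at 0.63 (adjusted p = 0.0510).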

How the data were processed

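RNA of 12 cultures was measured on Affymetrix mouse arrays. Per the labels, the deposited values are a linear signal intensity for each probe set, made with GCOS 1.2 per the submitters' processing notes, and the deposited intensities average 100 on every array once the extreme 2% at either end are left out. Arrays count no reads, so the number of arrays limits the precision.

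From these, log2(signal + 16) was computed here for 45037 probe sets, leaving out 64 control probe sets, and fitted over all 4 groups with limma 3.58.1 in R 4.3.3 (lmFit and eBayes with an intensity trend), with Benjamini-Hochberg adjustment over all probe sets. Values of linear signal are printed for each array. Errors on log2 differences are standard errors. Adding 16 understates the changes of dim genes. The platform annotation gave 1 symbol for 34945 probe sets, several for 932 and none for 9160, and 34741 were matched to RefSeq by Entrez ID with 0 symbols changed. A gene is represented by its probe set of highest mean signal. Other probe sets of a gene may not have passed, as for Ccng1 and Ift27 (1 of 3 passed in each) and Atp5g1 (1 of 2).

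The named genes were the 15 higher with the largest difference among those that passed with arrays apart, the 3 lower that did so (the rule allowed 15), Meis1, Cbx2, Trib2, Ccl3 and Flt3, and in each list up to 4 that passed or, with none, the 2 of smallest p. Others are named as members of a list or as chosen after their values were seen. The members and the 50 lists were chosen with earlier results of these data known. The script was tested on simulated data. Deviations of arrays with the same replicate number correlated at -0.009, -0.015 and -0.014 between both groups, so the numbers were not taken as pairs. Alternatives were another added value, quantile and median scaling, filters on dim or ambiguous probe sets, only 6 arrays, a block, no trend, array weights and leaving out each array. Promoters are from RefSeq.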

Additional observations from a re-analysis of the deposited data

How the results depend on the processing

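The count of 83 probe sets, 77 higher and 6 lower, 31 of them with a difference of at least 1, kept its direction throughout, and its size depended on the fit. Without 1 array at a time, 28 to 82 passed, 25 to 77 higher and 3 to 5 lower, and 15 to 43 had a difference of at least 1. Median scaling, which moved the median of all probe sets by -0.074, gave 32 passing, 28 higher and 17 of at least 1, and no intensity trend gave 21, with 18 higher, 3 lower and 15 of at least 1. The filter on dim probe sets gave 156, with 139 higher and 17 lower, and with 1 probe set per gene 142, with 134 higher. Adding 1 or 64 in place of 16 gave 47 or 11 of at least 1. Without probe sets marked _s, _x or _a, 2 were lower and 17 of at least 1. With the replicate block 86 passed, 82 higher and 4 lower, 69 of them among the 83, and the block is given only because the arrays share numbers.

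For the genes followed through every fit, 130 of 216 leave-one-out values stayed on their side of the threshold, 82 lost the call and 4 changed sign, and of 383 other values 327, 55 and 1 did. The changes of sign were for genes that did not pass: Meis1 was -0.056 with median scaling and, with 1 array left out, ran from -0.013 (without M33-MEIS1 replicate 1) to 0.14. In the same fits Trib2 ran from -0.21 to 0.031 (without MEIS1-deltaHD replicate 1), Cbx2 (1434116_at) from -0.022 (without MEIS1-deltaHD replicate 2) to 0.23, and Ccl3 from -0.25 to 0.068 (without MEIS1-deltaHD replicate 3). Median scaling also ended the calls of Hdc, Pf4, Ccr1, Ccr2, Csf1r, F13a1, Fcgr3, Il1r2, Csf2rb2, Itgb7, Ccng1, Ift27 and Atp5g1 (adjusted p from 0.0739 for Ccr1 to 0.368 for Fcgr3). No intensity trend ended the same calls and those of Cma1, Tgfbi, Lgals3, Ms4a6d, Sirpb1a, Clec4n and Erv3 (adjusted p from 0.0548 for Tgfbi to 0.285 for Atp5g1). Gzmb, Ccl6, Tpsab1, Lyz2, Lyz1, Mmp8, Ctss, Mycn, Mcpt8 and Cpa3 passed in every fit that tested them. The cause of these changes was not tested. With 3 arrays per group, dim genes such as Mcpt4 and Rtp4 have signals near the floor, where their folds are least certain.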

Other observations

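The genes described here lie in no list and were chosen after their values were seen. Several that passed as higher with M33-MEIS1 encode surface receptors of myeloid cells. Sirpb1a, a signal-regulatory protein, read 7.63, 14.2 and 17.4 with MEIS1-deltaHD and 45.2, 48.7 and 58.9 with M33-MEIS1 (log2 difference 1.21 ± 0.207, adjusted p = 0.0181, limma). Clec4n, the fungal lectin receptor Dectin-2, read 37.5, 37.95 and 56.7 against 108, 79.9 and 150.2 (1.08 ± 0.180, adjusted p = 0.0148). Pirb, an inhibitory immunoglobulin-like receptor, read 65.1, 71.6 and 69.02 against 155, 116 and 184 (adjusted p = 0.00167), and Cd300lf, another inhibitory receptor, read 126, 117 and 157 against 196, 208 and 194 (adjusted p = 0.0363). C3ar1, the receptor for complement C3a, read 38.1, 37.9 and 46.1 against 81.2, 66.4 and 86.8 (adjusted p = 0.0448) on the only 1 of its 3 probe sets that passed. All of these were lower with MEIS1-WT than with MIY-ctrl, at means of 58.8 against 270.1 for Pirb and 11.3 against 608 for Clec4n. The call for Pirb held in all 6 leave-one-out fits, that for C3ar1 in none (adjusted p 0.0554 to 0.251) and that for Cd300lf only without MEIS1-deltaHD replicate 3 (adjusted p elsewhere 0.116 to 0.264). The calls for Sirpb1a and Clec4n held in 1 and 2 of 6 leave-one-out fits: Sirpb1a only without MEIS1-deltaHD replicate 3, and Clec4n only without MEIS1-deltaHD replicate 3 or M33-MEIS1 replicate 2, with adjusted p elsewhere up to 0.143 and 0.121.

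Secreted and matrix proteins were also among the higher genes. Vcan, the proteoglycan versican, read 132, 134 and 159 with MEIS1-deltaHD and 267, 278 and 270.1 with M33-MEIS1, all arrays apart (log2 difference 0.88 ± 0.107, adjusted p = 0.000737, limma). F10, coagulation factor X, read 164, 161 and 183 against 339, 286 and 295 (0.80 ± 0.108, adjusted p = 0.00233). Adam8, a membrane metalloprotease, read 41.4, 36.4 and 58.3 against 86.2, 95.8 and 137 (0.99 ± 0.192, adjusted p = 0.0455). Igf1r, the receptor for insulin-like growth factor, read 118, 131 and 117 against 182, 199 and 213 (0.63 ± 0.114, adjusted p = 0.0290), above its mean of 138 in MIY-ctrl and 86.5 in MEIS1-WT. Erv3, an endogenous retroviral gene, read 28.7, 26.9 and 29.3 against 73.7, 78.3 and 69.99 (1.02 ± 0.168, adjusted p = 0.0132), with means of 93.8 in MIY-ctrl and 108 in MEIS1-WT, so MEIS1-deltaHD was its lowest group. The Erv3 call held in 1 of 6 leave-one-out fits, that without MEIS1-deltaHD replicate 3 (adjusted p elsewhere up to 0.104). Vcan and F10 passed in all 6, Igf1r in none (adjusted p 0.0649 to 0.192) and Adam8 only without MEIS1-deltaHD replicate 3 (adjusted p elsewhere 0.0695 to 0.282). Not every probe set of these genes passed: Vcan did on 2 of 8, F10 on 1 of 3 and Igf1r on 1 of 5.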
